A study of Rattus norvegicus with 10 samples.

Results

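The cytosolic ribosomal protein genes were taken as the protein-coding rows of the deposited gene table whose symbol is Rps, Rpl or Rplp followed by a number and at most 1 letter (a, x, l, p or y), with 1 row kept per symbol (the one with the highest mean) and the Rps6k kinases left out. That gave 72 genes of the 32545 in the table. They are coded on 19 chromosomes, with no more than 12 on any one. The descriptions of the rows name proteins of the cytosolic ribosome, a few of them paralogs, but the rows were picked by name. They were compared between kidney cortex of Dahl salt-sensitive rats (SS/JrHsdMcwi, labelled wild type) fed 4% NaCl with 2% oxonic acid and kidney cortex of the same strain fed 4% NaCl with vehicle, 5 libraries in each group. Dahl salt-sensitive rats are an inbred line that becomes hypertensive on salt, and oxonic acid blocks uricase, so that uric acid is broken down less. Both groups shared a 0.4% NaCl diet before the switch, a telemeter implanted at 8 to 9 weeks of age, 4 days of baseline recording, 3 weeks on the test diet and a kidney perfused with buffer before freezing. The study used males and females, and no sex is given per library. Nothing in the labels ties each library to a separate animal, so p-values measure the spread between these samples, which may be technical.

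A cytosolic ribosome is built from a small subunit, which reads the messenger RNA, and a large subunit, which joins the amino acids, each made of ribosomal RNA and one copy of most of its proteins. The P stalk, made of Rplp0 with the acidic proteins Rplp1 and Rplp2, recruits the elongation factors to the large subunit. In mammals the messages for these proteins begin with a C and a tract of pyrimidines at the cap, the 5′ terminal oligopyrimidine (TOP) tract, through which the kinase complex mTORC1 and the protein Larp1 adjust their translation together. The kidney cortex is mostly proximal tubule, whose cells spend much of their energy on transport.

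The tract was looked for at the RefSeq gene starts of rat build GRCr8, which listed 54 of the 72 symbols. For 4 of them (Rps4x, Rpl35a, Rpl37 and Rpl38) the listed start lies on another chromosome than the row of the table, and these were left out. Each of these rows has a length equal to its span, without a gap, and may be a copy rather than the gene itself. A C followed by at least 4 bases that are C or T, beginning no more than 5 bases from the annotated start on the transcribed strand, was found in 30 of the remaining 50 genes (60%), against 17.0% of all 33469 RefSeq starts. With the C exactly at the annotated start, the counts were 19 of 50 (38%) and 2.63% of all starts. The 30 bases around the start are shown 5′ to 3′ for the 5 members with the highest level and for those of the 5 members with the smallest unadjusted p that have a start counted here (Rps27a, Rpl6 and Rpl3), to show the tract as it stands in the genes described below. Capitals mark the tract, and a window without capitals holds no match to these letters at the annotated start.
Rpl41 (chr7:1563483-1563512, minus strand): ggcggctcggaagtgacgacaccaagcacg
Rplp1 (chr8:71290858-71290887, minus strand): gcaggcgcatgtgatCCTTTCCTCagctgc
Rps18 (chr20:4933730-4933759, plus strand): cacgtcacttccgctCTCTCTTCCacagga
Rplp0 (chr12:46718376-46718405, minus strand): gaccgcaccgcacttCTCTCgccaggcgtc
Rpl35 (chr3:43165907-43165936, minus strand): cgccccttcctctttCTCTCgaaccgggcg
Rps27a (chr14:107488871-107488900, minus strand): ttccgatccgccatcgttggtgagtgtgtg
Rps27a (chr14:107488927-107488956, minus strand): cctaaagggcggttCCTTCgacccggagac
Rpl6 (chr12:41011676-41011705, minus strand): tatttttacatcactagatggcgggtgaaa
Rpl3 (chr7:113507976-113508005, minus strand): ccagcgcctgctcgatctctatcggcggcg
Rps27a has a pair of RefSeq starts, both shown, and 1 of them holds the tract. Among the tested members with a RefSeq start, the median log2 difference between the groups was -0.13 for the 29 with a match (28 lower with oxonic acid) and -0.16 for the 18 without (17 lower). A gene without a match may still have a tract if its annotated start is displaced. In Rpl13a and Rps2, which had no match, a long run of C and T ends at or just before the annotated start. The medians therefore do not compare genes with and without the tract.

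The values are FPKM, fragments per kilobase of gene length scaled to library size. Each library held 14.5 to 18.5 M (mega) reads in genes, and ribosomal protein genes took 1.37 to 2.04% of those reads. In bulk tissue, fewer cells of a type and less RNA per cell cannot be told apart. The proximal tubule markers, 10 of 10 tested, summed to 8666 to 9882 FPKM in oxonic acid cortex and 7729.5 to 9825 FPKM in vehicle cortex, so that the defining markers of the cortex were present. Vehicle library 4 stood apart over all genes. It lay at 39.8 on the first principal component of all tested genes (18.2% of the variance), with the other 9 libraries between -13.7 and 15.5, and genes of the mitochondrial genome made up 15.4% of its summed FPKM, against 19.2 to 22.9% in the other 9. The members' count and median are also given without it.

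Ribosomal protein genes were abundant in every library. The 72 genes together made up 3.98, 3.46, 3.86, 3.94 and 3.90% of the summed FPKM in the 5 oxonic acid libraries, and 4.12, 4.42, 4.13, 4.97 and 3.83% in the 5 vehicle libraries. Oxonic acid library 2 was the lowest of all 10 and vehicle library 4 the highest, and the groups overlapped through vehicle library 5. The means were 3.83 ± 0.209% with oxonic acid and 4.29 ± 0.430% with vehicle (SD, n = 5 each). Without those libraries at the ends the means were 3.92% with oxonic acid and 4.13% with vehicle. As a share of FPKM outside the mitochondrial genome, the means were 4.87 ± 0.288% with oxonic acid and 5.29 ± 0.409% with vehicle. Without the libraries at the ends these means were 4.998% with oxonic acid and 5.15% with vehicle.

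**Figure D1:**
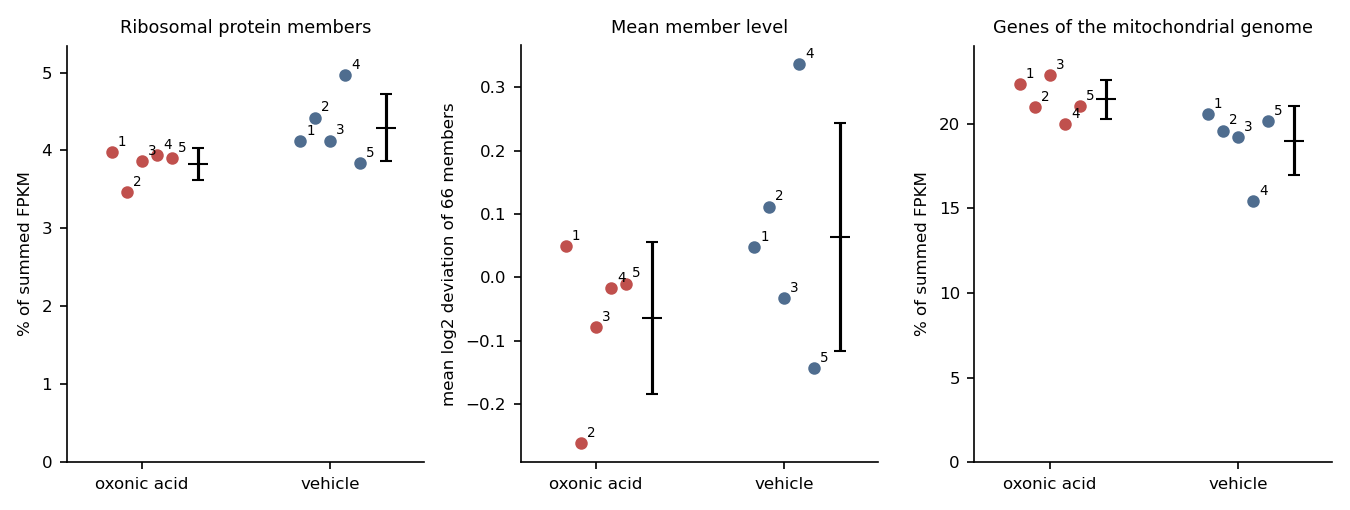
Share of summed FPKM held by the 72 ribosomal protein genes (left, percent), mean log2 deviation of the 66 tested members from their own 10-library means (middle), and share of genes of the mitochondrial genome (right, percent), with 1 numbered point per library and the group mean ± SD beside it. The member share was 3.46% in oxonic acid library 2 and 4.97% in vehicle library 4, the ends of the range, and the mitochondrial share of vehicle library 4, 15.4%, was below all others.

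Of the 72 genes, 66 reached a mean of 0.5 FPKM and were tested among 14508 genes with limma on log2(FPKM + 0.5), a scale that understates differences of low genes. Their mean level ran from 1.70 to 989.9 FPKM, with a median of 360 FPKM and 56 members above 100 FPKM. Levels are per listed gene length, which ran from 153 to 5151 bases in tested members and may differ from the message length. Reads can also lie in copy rows, so the order of levels holds only for these rows as listed. Rpl41, which codes for a very short basic peptide of the large subunit, averaged 989.9 FPKM, Rplp1 averaged 987 FPKM, Rps18, a protein of the small subunit head, averaged 935 FPKM, Rplp0 averaged 784 FPKM and Rpl35, which lies near the exit of the peptide tunnel, averaged 737 FPKM. Rpl41 and Rplp1, next to each other in that order, differed by less than their spread over libraries.

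The 6 members under the filter included paralogs and rows at or near 0. Rpl3l, a paralog of Rpl3, averaged 0.123 FPKM, and Rpl39l, a paralog of Rpl39, averaged 0.162 FPKM. The muscle paralog Rpl3l and the testis paralog Rpl39l were thus near 0 in this tissue, while Rpl3 averaged 355 FPKM and Rpl39 averaged 296 FPKM. The rows named Rpl10a and Rpl23a were listed at 0 in all 10 libraries, and Rplp2 averaged 0.248 FPKM. These last 3 are proteins of every ribosome, and the table held other rows that name them, described below.

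No member passed the test. The 0 called members stand beside 0% of all genes tested by limma at an adjusted p under 0.05, and the smallest adjusted p of a member was 0.389. At an unadjusted p under 0.05 there were 4 members of 66 (6.06%), all lower with oxonic acid, against 9.49% of all genes in either direction and 5.17% lower. With limma voom on the whole reads recovered from FPKM and length, 0 members and 0% of genes were called, and 3 members and 9.75% of genes had an unadjusted p under 0.05. The count of members at that level depended on the setting: it was 20 of 66 with every library scaled to equal summed FPKM (10.5% of all genes), 16 without vehicle library 5 (10.4% of all genes) and 10 with quantile normalization (10.1% of all genes), and 1 to 5 without any other single library (limma).

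The direction was one-sided. With oxonic acid 62 of the 66 members had lower values and 4 had higher ones, so that 93.9% were lower, against 48.2% of all genes tested. The median log2 difference of the members was -0.12, a fold of 0.920, beside 0.0053 for all genes. In all, 61 of 66 members lay within 0.3 of 0 on the log2 scale. The groups overlapped in all 66, so 0 members had groups that did not overlap, against 1.91% of all genes. Of the small subunit, 24 of 26 tested members were lower (median log2 difference -0.14). Of the large subunit, 36 of 38 were lower (median -0.12), and of the P stalk both tested members were lower (median -0.14).

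**Figure D2:**
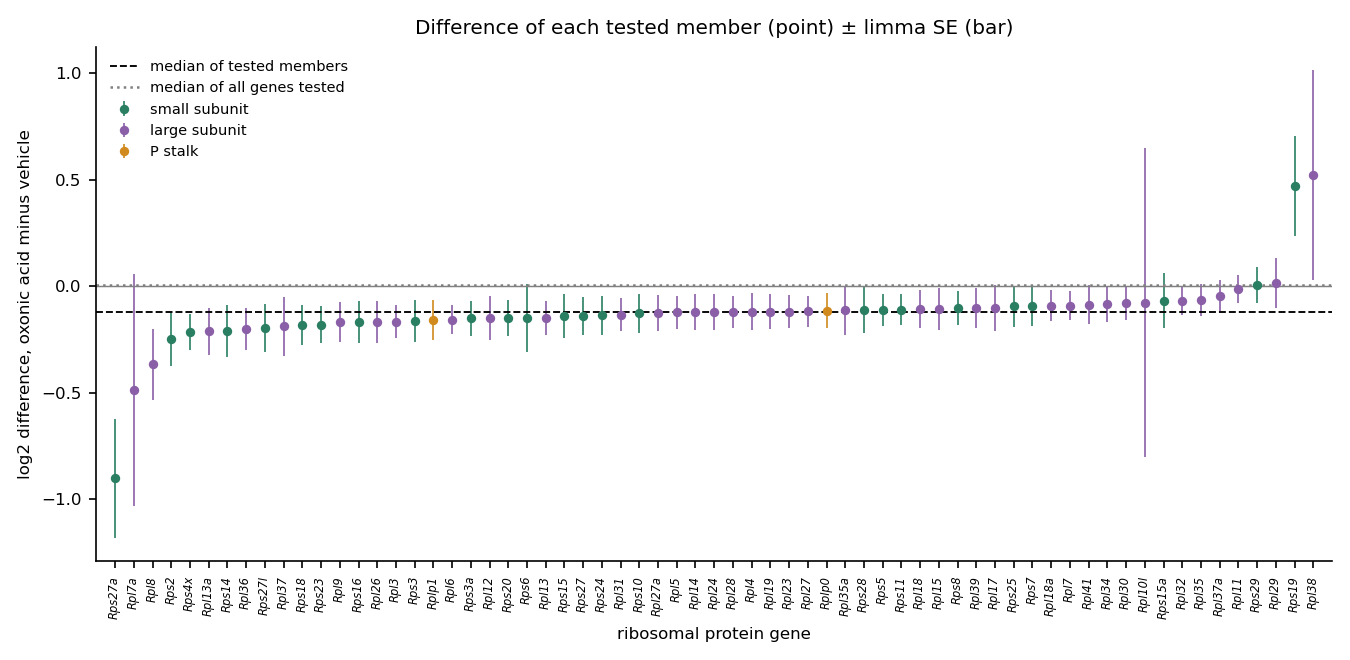
Log2 difference (oxonic acid minus vehicle, on log2(FPKM + 0.5)) of 65 of the 66 tested members, with the limma standard error as the bar and members sorted from lowest to highest. Most points lie close to the members' median of -0.12 (dashed), below the median of all genes, 0.0053 (dotted), and Rps27a (-0.90), Rps19 (0.47) and Rpl38 (0.52) lie away from the rest.

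In each group, 1 library lay at the end of the range for most members. Vehicle library 4 held the highest value of 58 of the 66 members, against 22.4% of all genes tested. Oxonic acid library 2 held the lowest value of 58 of the 66 members, against 12% of all genes. The mean log2 deviation of the members was 0.049, -0.26, -0.079, -0.017 and -0.0099 in the oxonic acid libraries and 0.048, 0.11, -0.033, 0.34 and -0.14 in the vehicle libraries. The lowest value was thus that of oxonic acid library 2 and the highest that of vehicle library 4, and vehicle library 5 lay below 4 of the 5 oxonic acid libraries. Without these 2 libraries, which were chosen after their values were seen, 45 members were lower and 21 higher with oxonic acid and the median log2 difference was -0.015, with 47.8% of all genes lower. At an unadjusted p under 0.05 there was then 1 member, beside 7.32% of all genes (limma). Without vehicle library 4 alone the median was -0.063 (60 lower), and without oxonic acid library 2 alone it was -0.082 (58 lower). The log2 difference of 54 of the 66 members changed sign or kept less than its size divided by 1.5 without vehicle library 4, and that of 34 without oxonic acid library 2. Oxonic acid library 2 had the fewest reads, 14.5 M, and vehicle library 4 had 15.2 M. Oxonic acid library 5, with a mean deviation of -0.0099, had 14.6 M. The part of depth and of the low mitochondrial share in the member level was not tested.

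**Figure D3:**
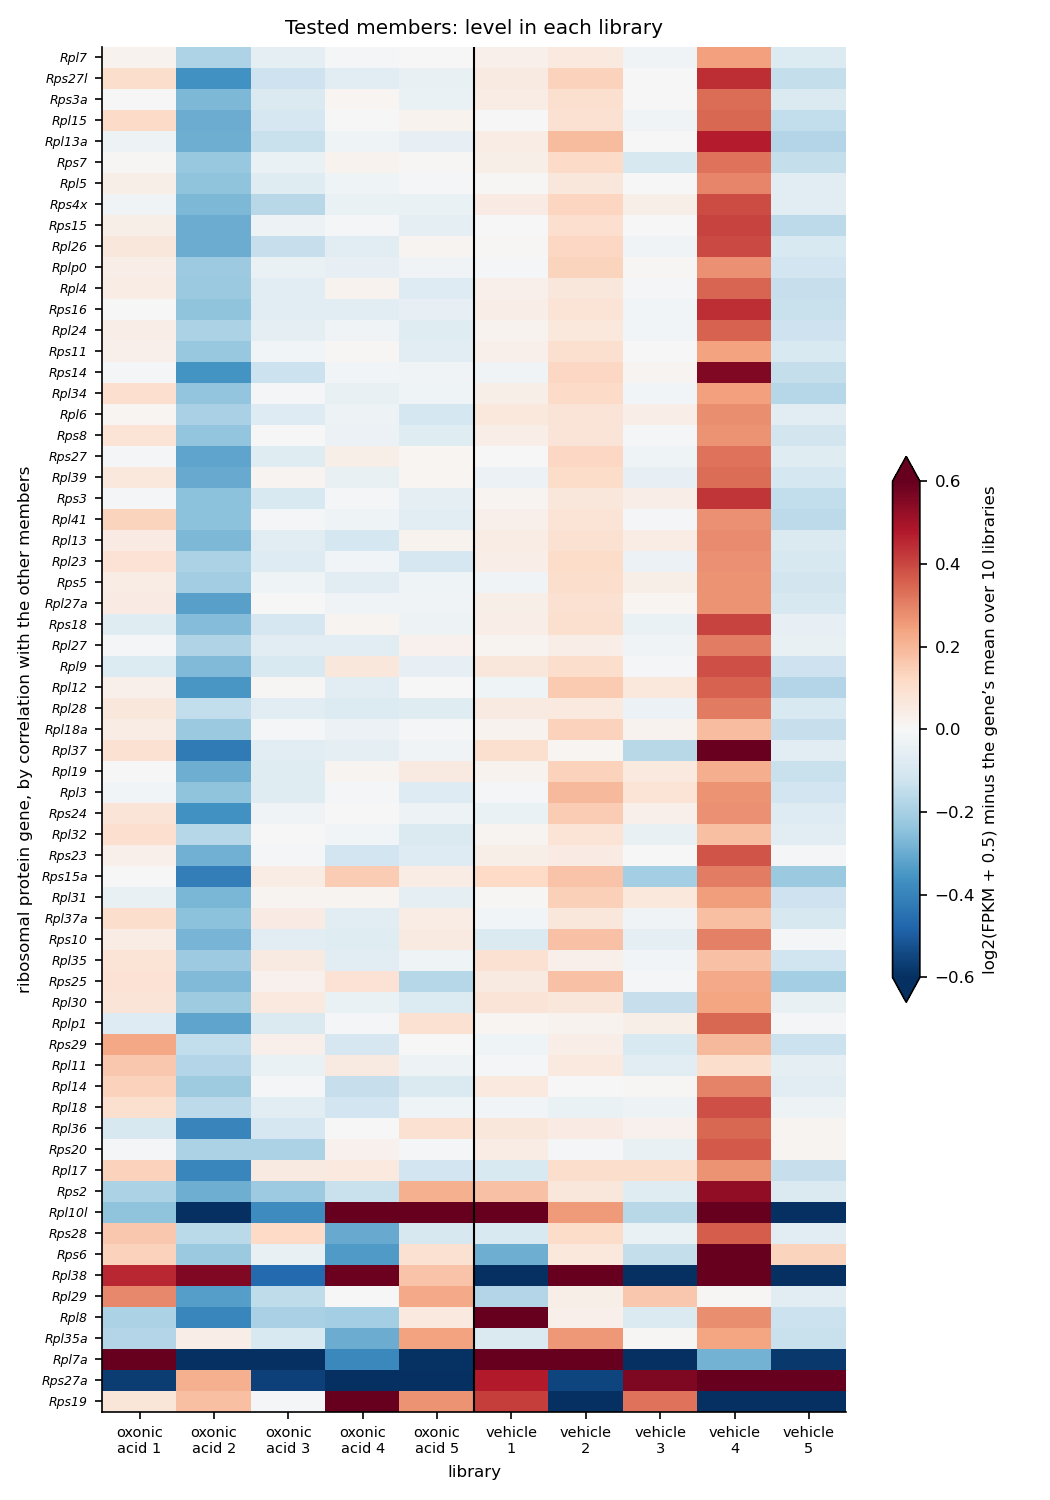
Level of 65 of the 66 tested members (rows, sorted by their correlation with the mean of the other members) in each of the 10 libraries (columns, oxonic acid left of the line), as log2(FPKM + 0.5) minus the gene's mean over the libraries, with colours ending at 0.6 either way. The column of oxonic acid library 2 is low and that of vehicle library 4 is high through most rows, with the lowest value of 57 and the highest value of 57 of the 65 rows, and the lowest rows follow another pattern.

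The sample numbers in the labels form 3 runs, which the labels do not call batches. The first run held 3 oxonic acid and 0 vehicle libraries, so that there the run and the group cannot be told apart. In the second run (1 oxonic acid and 3 vehicle libraries) 55 members were lower with oxonic acid. Their median log2 difference was -0.057, beside 0.0098 for all genes. In the third (1 oxonic acid and 2 vehicle libraries, vehicle library 4 among them) 59 were lower, with a median of -0.13, beside 0.0064 for all genes. Each of these counts rests on 1 oxonic acid library, and the share of all genes lower within a run is not given. With the run as a block in the fit the median was -0.093, beside 0.0054 for all genes, and 60 members were lower.

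Member levels varied together from library to library. After the group means were subtracted, the median correlation between pairs of members over the 10 libraries was 0.83. For 56 of 66 members the correlation with the mean of the other members was at least 0.75. Over the 8 libraries other than oxonic acid library 2 and vehicle library 4, the median was 0.54 and 35 members had at least 0.75. These points share library, depth and scaling, so the correlations are descriptions. Rpl7, a large subunit protein, followed the others most closely (r = 0.99), and Rps27l, a paralog of Rps27 that p53 induces, had r = 0.99. The 10 members below 0.75 were Rps19, Rps27a, Rpl7a, Rpl35a, Rpl8, Rpl29, Rpl38, Rps6, Rps28 and Rpl10l.

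Rps4x, a small subunit protein, had the second smallest unadjusted p of the members. Its row lies on chromosome 4 in the table, and it held only 21.1% of the FPKM of rows naming its protein. It had 68.8, 57.9, 62.1, 67.98 and 67.8 FPKM in oxonic acid cortex, against 72.3, 76.4, 71.6, 91.7 and 66.6 FPKM in vehicle cortex. Vehicle library 4 was the highest and oxonic acid library 2 the lowest, and vehicle library 5 lay among the oxonic acid libraries. The log2 difference was -0.22 ± 0.085 (SE; limma, unadjusted p = 0.0278, adjusted p = 0.479). Rpl6, of the large subunit, had 367, 318, 345, 356 and 338 FPKM in oxonic acid cortex and 380.1, 384, 374, 442 and 348 FPKM in vehicle cortex. Its ends were the same libraries as for Rps4x, and its log2 difference was -0.16 ± 0.068 (SE; limma, unadjusted p = 0.0423, adjusted p = 0.516). Rpl3, which shapes the site where peptide bonds form, averaged 334 ± 21.2 FPKM in oxonic acid cortex and 376 ± 39.96 FPKM in vehicle cortex (SD, n = 5 each; limma, log2 difference -0.17, adjusted p = 0.533).

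The P stalk members had high levels and the same pattern. Rplp0, the base of the stalk and a common reference gene in quantitative PCR, had 803, 673, 759.9, 755 and 769.7 FPKM in oxonic acid cortex and 775, 857, 785, 945 and 721 FPKM in vehicle cortex. Rplp1, an acidic stalk protein, had 930.3, 789, 923, 974 and 1045 FPKM in oxonic acid cortex and 988, 996, 1006, 1245 and 974 FPKM in vehicle cortex. In both genes the groups overlapped, with vehicle library 4 at the top and oxonic acid library 2 at the bottom. The log2 differences were -0.11 ± 0.081 for Rplp0 and -0.16 ± 0.092 for Rplp1 (SE; limma, adjusted p = 0.651 and 0.594). Without vehicle library 4 they were -0.061 for Rplp0 and -0.094 for Rplp1.

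The members named in this paragraph, with a known role in disease or signalling, lay within 0.3 of 0 on the log2 scale. Rps19 (0.47), Rpl38 (0.52) and Rps27a (-0.90), among others described below, lay outside that range. Rpl5 and Rpl11, which with 5S ribosomal RNA bind Mdm2 when ribosome assembly fails, had adjusted p-values above the threshold like all members. Rpl5 averaged 414 ± 29.7 FPKM in oxonic acid cortex and 451 ± 45.4 FPKM in vehicle cortex (log2 difference -0.12). Rpl11 averaged 59.8 ± 5.21 FPKM in oxonic acid cortex and 60.2 ± 3.19 FPKM in vehicle cortex (SD, n = 5 each), a log2 difference of -0.012 whose sign changed under 6 alternative settings beside those that left out single libraries. Rpl13a, which has a role in interferon-driven translation control in human cells, averaged 564 ± 42.8 FPKM in oxonic acid cortex and 659 ± 114 FPKM in vehicle cortex (log2 difference -0.21; limma, adjusted p = 0.561). Rps14, whose partial loss causes a human macrocytic anaemia, averaged 577 ± 56.3 FPKM in oxonic acid cortex and 675 ± 136 FPKM in vehicle cortex (log2 difference -0.21; limma, adjusted p = 0.597). Rps3, a small subunit protein that also acts in DNA repair, had a log2 difference of -0.16 ± 0.10, Rps27 one of -0.14 ± 0.09 and its paralog Rps27l one of -0.20 ± 0.11 (SE). Without vehicle library 4 the log2 differences were -0.065 for Rpl5, -0.12 for Rpl13a, -0.10 for Rps14, -0.077 for Rps3, -0.077 for Rps27 and -0.11 for Rps27l.

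Rps2, a small subunit protein near the entry of the messenger RNA, had 457, 425, 447, 474 and 603 FPKM in oxonic acid cortex and 588, 546, 495, 752 and 490.3 FPKM in vehicle cortex. Oxonic acid library 5 stood above the other 4 of its group, in contrast to most members, and the log2 difference was -0.25 ± 0.13 (SE; limma, adjusted p = 0.561), or -0.15 without vehicle library 4 and -0.11 with the run as a block. The 2 members with the smallest positive differences were Rps29 (0.0035), a zinc-binding protein of the small subunit, and Rpl29 (0.014), a large subunit protein known to bind heparin, and both signs changed in some alternative settings.

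Rps27a had the smallest unadjusted p of the group. It codes for ubiquitin fused to small subunit protein S27a. Its values were 194, 335, 196, 181 and 180.2 FPKM in oxonic acid cortex and 401, 197, 425, 646 and 441 FPKM in vehicle cortex. The oxonic acid libraries were low except library 2, the vehicle libraries were high except library 2, and the groups overlapped. The log2 difference was -0.90 ± 0.28 (SE; limma, unadjusted p = 0.00797, adjusted p = 0.389), with a lower value in oxonic acid than in vehicle in all 10 fits that left out 1 library.

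A second row that names the same protein had the opposite order of libraries. Rps27a-ps1, annotated as a pseudogene, had 345, 129, 316, 374 and 358 FPKM in oxonic acid cortex and 167, 409.8, 136, 174 and 93.8 FPKM in vehicle cortex. It was low in oxonic acid library 2 and high in vehicle library 2, the libraries where Rps27a was out of step with its group. The FPKM of all rows naming S27a summed to 539, 464, 512, 556 and 538 with oxonic acid and 569, 606, 561, 821 and 535 with vehicle. The sum followed the mean level of the members, Rps27a among them (r = 0.93). Its log2 difference was -0.23 ± 0.11 (SE; limma, unadjusted p = 0.0596, adjusted p = 0.538). The labels do not say how the counting divided reads between such copies, and the value of Rps27a alone is uncertain.

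**Figure D4:**
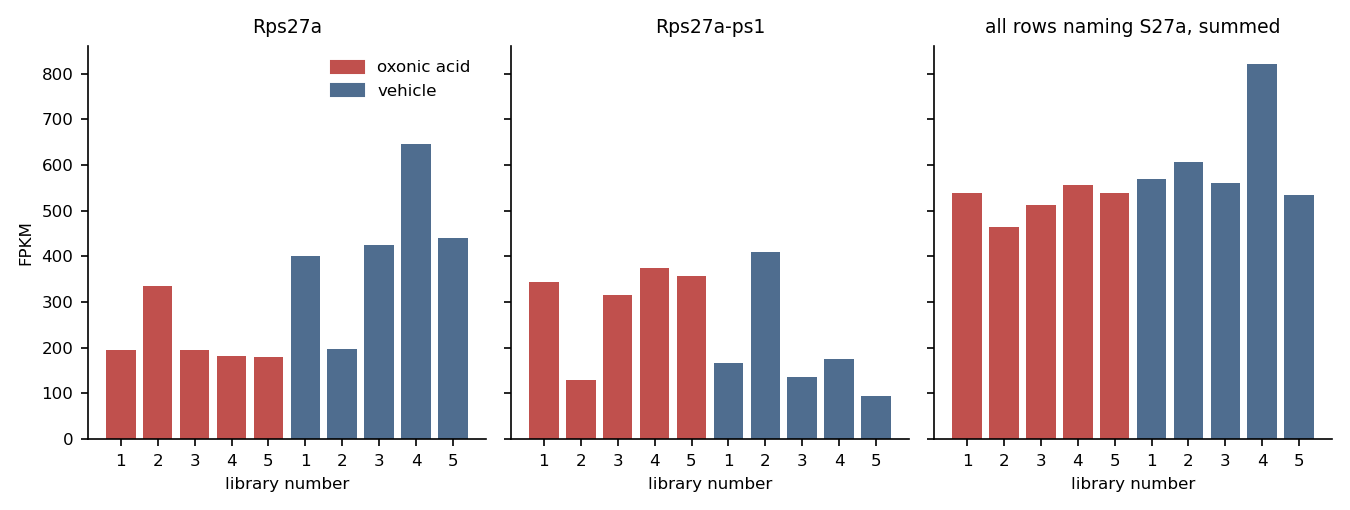
FPKM of Rps27a (left), Rps27a-ps1 (middle) and all rows naming S27a summed (right) in each of the 5 oxonic acid and 5 vehicle libraries, 1 bar per library. Library 2 is the exception in both groups and in both rows, and the summed bars are more even, from 464 to 821 FPKM.

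Copies of this kind are a property of the family. In all, 329 rows of the table name a cytosolic ribosomal protein in their description, and 60 of the 72 members have at least 1 such copy row. The member held over 90% of its protein's FPKM in 50 cases and under 50% in 10. Among the 10 were Rpl10a, Rpl23a, Rplp2, Rps6, Rps4x, Rpl38, Rpl8, Rpl7a and Rpl35a. With all rows of a protein summed, 60 of the 67 proteins that have a member and a tested sum were lower with oxonic acid and 7 higher, the median log2 difference was -0.12 and 0 were called (limma; 2 had an unadjusted p under 0.05, beside 9.44% of genes).

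Summing the rows altered the values of single members more than the median of the group. Rps19, a small subunit protein and the gene most often mutated in human Diamond-Blackfan anaemia, had 109, 117, 102, 163 and 125 FPKM in oxonic acid cortex and 138, 67.4, 129.6, 67.6 and 63.6 FPKM in vehicle cortex, which gave 0.47 ± 0.24 for the log2 difference (SE; limma, adjusted p = 0.552). Its copy LOC100910336, described as S19-like, had 115, 73.2, 69.1, 14.6 and 54.6 FPKM in oxonic acid cortex and 94.9, 89.9, 95.2, 80.97 and 103 FPKM in vehicle cortex. The sum over S19 rows averaged 214 ± 21.2 FPKM in oxonic acid cortex and 215 ± 37.4 FPKM in vehicle cortex (SD, n = 5 each; log2 difference 0.0087).

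Rps6, the small subunit protein phosphorylated downstream of mTORC1, carried only 20.2% of its protein's FPKM. The Rps6 row averaged 5.02 ± 0.763 FPKM in oxonic acid cortex and 5.72 ± 1.58 FPKM in vehicle cortex, while LOC100911372, described as S6-like, had 39.1, 45.3, 11.5, 16.5 and 15.2 FPKM in oxonic acid cortex and 19.3, 14.7, 28.3, 12.4 and 9.61 FPKM in vehicle cortex. The row had a log2 difference of -0.15 and the sum one of 0.33 ± 0.31 (SE; limma, adjusted p = 0.748), so the sign depended on which rows were counted. Rpl8, a large subunit protein close to the peptide-forming centre, had 12.4, 10.7, 12.3, 12.2 and 14.8 FPKM in oxonic acid cortex and 25.4, 14.5, 13.3, 17.3 and 12.9 FPKM in vehicle cortex. Vehicle library 1 was its highest value, the log2 difference was -0.37 ± 0.17 (SE; limma, unadjusted p = 0.0486, adjusted p = 0.522) and that of the sum over L8 rows was -0.082.

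Rpl7a, of the large subunit, had 78.8, 19.8, 20.9, 25.8 and 22.3 FPKM in oxonic acid cortex and 62.6, 135, 19.6, 27.7 and 22.5 FPKM in vehicle cortex. Oxonic acid library 1 and vehicle libraries 1 and 2 were far above the rest, and the log2 difference of -0.49 ± 0.54 (SE) was -0.054 without vehicle library 2 and -0.85 without oxonic acid library 1. Its copy LOC100910109 was steady, at 51.99 ± 2.90 FPKM in oxonic acid cortex and 60.6 ± 7.97 FPKM in vehicle cortex (SD, n = 5 each). The row named Rpl38 had 2.07, 2.26, 0.862, 2.32 and 1.62 FPKM in oxonic acid cortex and 0.282, 2.47, 0.290, 4.28 and 0.582 FPKM in vehicle cortex. These low values gave a log2 difference of 0.52 ± 0.49 (SE). The row held 31.4% of the FPKM of rows naming L38 and lies on another chromosome than the listed gene start. Its values may not be those of the gene for L38, a large subunit protein needed for translation of Hox messages in mice. Rpl10l, a retrocopy of Rpl10, had 2.35, 0.429, 2.10, 7.71 and 6.23 FPKM in oxonic acid cortex and 6.75, 3.53, 2.50, 7.70 and 0.193 FPKM in vehicle cortex. High and low values occurred in both groups and the log2 difference was -0.078 ± 0.73 (SE). RGD1563861, described as similar to L10, averaged 542 ± 37.6 FPKM in oxonic acid cortex and 573 ± 40.7 FPKM in vehicle cortex.

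Proteins whose named row was at or near 0 were read through other rows. L10a rows summed to 20.1, 18.03, 26.4, 23.3 and 35.03 FPKM in oxonic acid cortex and 16.5, 15.9, 22.9, 11.2 and 9.11 FPKM in vehicle cortex. Their log2 difference was 0.71 ± 0.24 (SE; limma, unadjusted p = 0.0123, adjusted p = 0.403), higher with oxonic acid, with groups that overlapped. The sum over L23a rows averaged 8.36 ± 2.35 FPKM in oxonic acid cortex and 6.80 ± 1.84 FPKM in vehicle cortex (SD, n = 5 each; log2 difference 0.28). The L10a and L23a sums were low beside the median level of tested members, 360 FPKM. P2 rows summed to 209, 97.6, 304, 107 and 114 FPKM in oxonic acid cortex and 264, 494, 116, 160.2 and 257 FPKM in vehicle cortex. Most of that spread lay in LOC100911575, described as P2-like, at 121, 8.71, 196, 10.4 and 6.94 FPKM in oxonic acid cortex and 156, 382, 20.4, 14.8 and 145 FPKM in vehicle cortex, while LOC498555, also similar to P2, was steadier at 89.3 ± 9.10 FPKM in oxonic acid cortex and 106 ± 16.9 FPKM in vehicle cortex (SD, n = 5 each). In addition, 17 tested members overlap another tested gene on the same strand, most of them small nucleolar RNAs, and 2 overlap one on the opposite strand (Rpl31 with Tbc1d8 and Rpl37 with Vps53). The labels do not say whether reads were counted by strand.

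A short list of ribosomal proteins and paralogs that the naming pattern leaves out was set beside the members. Of 8 tested, 7 were lower with oxonic acid (median log2 difference -0.10; without the 2 libraries 5 were lower and the median was -0.0028). Rpsa, a small subunit protein also known as the laminin receptor, averaged 695 ± 48.00 FPKM in oxonic acid cortex and 750.0 ± 78.3 FPKM in vehicle cortex. Gnb2l1, the symbol the table uses for the scaffold protein Rack1, averaged 165 ± 9.89 FPKM in oxonic acid cortex and 176 ± 17.6 FPKM in vehicle cortex (SD, n = 5 each). Rpl36al and Rpl22l1, paralogs of Rpl36a and Rpl22, had log2 differences of -0.15 ± 0.11 and -0.22 ± 0.13 (SE). Without vehicle library 4 the differences were -0.05 for Rpl36al, -0.09 for Rpl22l1, -0.047 for Rpsa and -0.043 for Gnb2l1, against -0.11 and -0.095 for these last over all libraries.

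Other messages of the TOP class were lower in most cases, with 23 of 25 tested lower, a median log2 difference of -0.10, 6 at an unadjusted p under 0.05 and 0 called by limma. Without the 2 libraries 19 were lower and the median was -0.019. The largest difference of the list was that of Eif3h (0.64), which was higher with oxonic acid and not among the 6. For this list and those below, the counts at an unadjusted p under 0.05 stand beside 9.49% of all genes in either direction (limma). Eef1a1, the elongation factor that brings in transfer RNA, averaged 2938 ± 184 FPKM in oxonic acid cortex and 3087 ± 276 FPKM in vehicle cortex. Eef2, which moves the ribosome along, averaged 557 ± 37.6 FPKM in oxonic acid cortex and 574 ± 39.6 FPKM in vehicle cortex (SD, n = 5 each). Nap1l1, a histone chaperone, had 45.9, 47.3, 46.6, 51.6 and 48.9 FPKM in oxonic acid cortex and 58.5, 61.6, 57.3, 70.7 and 53.3 FPKM in vehicle cortex. The groups did not overlap in this gene, and its log2 difference was -0.32 ± 0.072 (SE; limma, unadjusted p = 0.000984, adjusted p = 0.333). Vim and Lgals1, which are also abundant in fibroblasts and immune cells, had log2 differences of -0.36 ± 0.11 and -0.27 ± 0.10 (SE; limma, adjusted p = 0.37 and 0.454).

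Of the genes whose products assemble ribosomes, 60 of 71 tested were lower with oxonic acid (median log2 difference -0.077, 4 at an unadjusted p under 0.05, 0 called by limma), and 47 of 71 without the 2 libraries (median -0.038). Nop56, a core protein of box C/D small nucleolar ribonucleoproteins, had 20.9, 19.1, 20.4, 19.2 and 20.1 FPKM in oxonic acid cortex and 22.3, 21.4, 22.4, 25.97 and 26.6 FPKM in vehicle cortex. Fbl (fibrillarin), the methyltransferase of the same particles, had 23.4, 23.6, 23.6, 24.9 and 22.5 FPKM in oxonic acid cortex and 25.7, 25.4, 27.9, 33.4 and 25.8 FPKM in vehicle cortex. In both genes the groups did not overlap, and the log2 differences were -0.24 ± 0.068 and -0.22 ± 0.075 (SE; limma, adjusted p = 0.37 and 0.414). Npm1 (nucleophosmin) had a log2 difference of -0.19 ± 0.078, Ncl (nucleolin) one of -0.084 ± 0.075 and Gar1, of the box H/ACA particles, one of -0.30 ± 0.11 (SE). Without vehicle library 4 that of Ncl was -0.018, and with the run as a block that of Npm1 was -0.12.

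RNA polymerase I, which transcribes the large ribosomal RNAs, and its factors had 14 of 17 tested genes lower (median log2 difference -0.064, 2 at an unadjusted p under 0.05, 0 called by limma). The median was -0.053 without the 2 libraries. Cd3eap and Polr1e, subunits of the polymerase, had log2 differences of -0.40 ± 0.13 and -0.23 ± 0.10, and Ubtf, which opens the ribosomal DNA, one of -0.0094 ± 0.041 (SE). Of the translation factors, 26 of 35 were lower (median -0.062, and 0.0023 without the 2 libraries), among them the helicase Eif4a1 (-0.20 ± 0.061) and Eif2b3 (-0.30 ± 0.10), a subunit of the exchange factor for Eif2. With the run as a block Cd3eap had -0.26.

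Myc, the transcription factor known for driving ribosome production, had the smallest unadjusted p of the genes named here. It had 6.002, 5.42, 7.01, 8.11 and 7.87 FPKM in oxonic acid cortex and 9.49, 12.3, 9.77, 13.2 and 10.8 FPKM in vehicle cortex. Every oxonic acid library lay below every vehicle library, and the log2 difference was -0.66 ± 0.12 (SE; limma, unadjusted p = 0.000261, adjusted p = 0.327), which did not pass. It ranged from -0.72 to -0.58 when each library was left out in turn.

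The mTORC1 pathway itself had no common direction, with 16 of 32 tested genes lower and a median log2 difference of 0.0066 (5 at an unadjusted p under 0.05, 0 called by limma). Mtor, the kinase, averaged 12.6 ± 0.887 FPKM in oxonic acid cortex and 11.4 ± 1.42 FPKM in vehicle cortex, and Larp1, which binds TOP messages, averaged 27.04 ± 1.78 FPKM in oxonic acid cortex and 25.02 ± 1.15 FPKM in vehicle cortex (SD, n = 5 each). Tsc1, an inhibitor of the pathway, had a log2 difference of 0.29 ± 0.10, and Eif4ebp1, the translation repressor that mTORC1 inactivates, one of -0.53 ± 0.18 (SE; limma, adjusted p = 0.405 and 0.414). Without vehicle library 4 the log2 difference of Mtor was 0.066, against 0.14 over all libraries, and with the run as a block that of Eif4ebp1 was -0.17. Lamtor1, which anchors the complex to lysosomes, had one of -0.092 ± 0.039 with groups that did not overlap. Among the genes of nucleolar stress and p53, 8 of 11 were lower (median -0.066, and -0.11 without the 2 libraries), including Cdkn1a (-0.40 ± 0.13), Bax (-0.22 ± 0.077) and Gdf15 (-0.66 ± 0.28; SE), and 0 were called by limma. With the run as a block Cdkn1a had -0.21, and with library weights Gdf15 had -0.35.

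The mitochondrial ribosomal proteins, coded in the nucleus and built into another ribosome, had 55 of 73 genes lower and a median log2 difference of -0.035 (3 at an unadjusted p under 0.05, Mrpl50, Mrpl54 and Mrpl55; 0 called by limma). Without the 2 libraries 27 of 73 were lower and the median was 0.017. Ribosomal protein messages are short, with a median length of 631 bases in the table for tested members, against 2157 for all genes tested, and 52 of the 66 are no longer than 1000 bases. The 1431 other protein-coding genes of at most 1000 bases had a median log2 difference of -0.044 (894 lower), and -0.0011 without the 2 libraries. The part of length in the members' values was not tested.

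**Figure D5:**
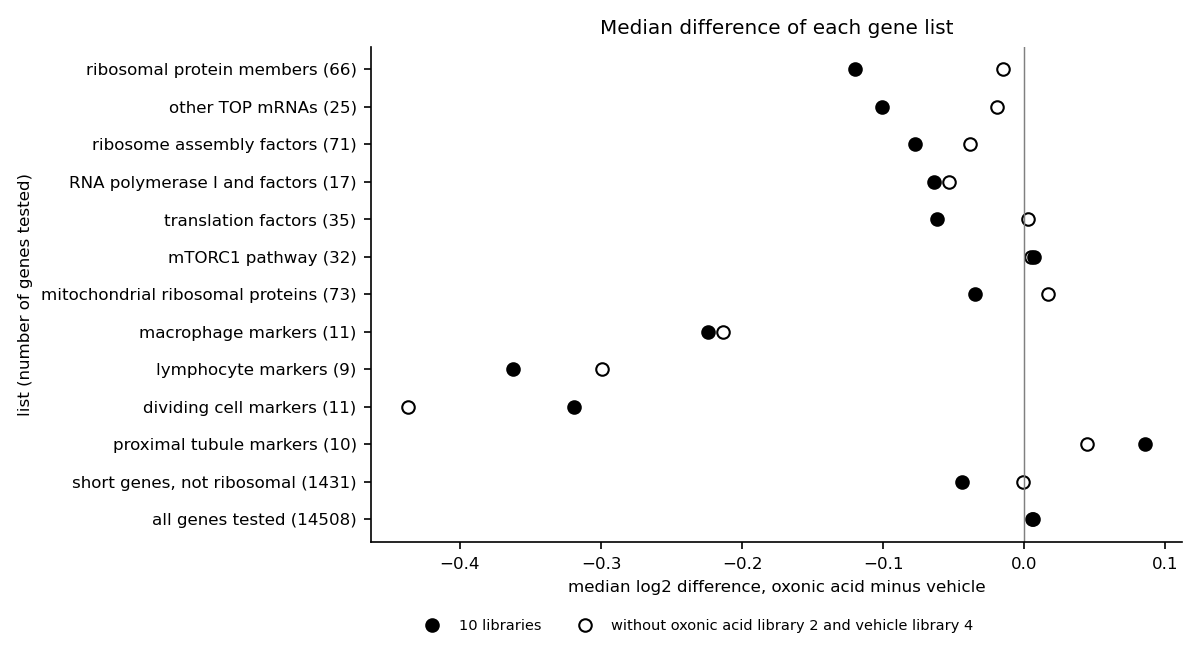
Median log2 difference (oxonic acid minus vehicle) of the tested members, related gene lists, cell type markers and all genes, over 10 libraries (filled) and without oxonic acid library 2 and vehicle library 4 (open), with the number of genes tested in brackets. The 2 libraries were chosen as the ends of the member values after these were seen, so the members' median was bound to move toward 0. Without them the medians were -0.015 for the members and -0.019 for the other TOP messages. Those of macrophage, lymphocyte and dividing cell markers were -0.21, -0.30 and -0.44. Because of that choice, the lists cannot be compared by how far their medians moved.

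Lists of markers of other cell types had median log2 differences on both sides of 0, with 0 genes called by limma in any of them. Those of immune and dividing cells had lower values in oxonic acid cortex. All 11 tested of 12 macrophage markers had lower values with oxonic acid (median log2 difference -0.22, 6 at an unadjusted p under 0.05), and their sum ran from 435 to 548 FPKM in oxonic acid cortex and from 508 to 691 FPKM in vehicle cortex. All 9 tested of 14 lymphocyte markers were lower (median -0.36), with sums of 35.7 to 37.5 FPKM in oxonic acid cortex and 36.7 to 56.2 FPKM in vehicle cortex. All 11 markers of dividing cells were lower (median -0.32), with sums of 80.8 to 91.1 FPKM in oxonic acid cortex and 92.7 to 112 FPKM in vehicle cortex. None of these lists held a marker at 0 in all libraries, and limma called 0 of their genes. Examples were Mrc1, a receptor of resident macrophages (-0.55 ± 0.13), Cd3e of the T cell receptor complex (-0.65 ± 0.17) and Rrm2, which makes deoxynucleotides (-0.79 ± 0.20; SE, limma, adjusted p = 0.333 for each). Oxonic acid library 2, where the ribosomal protein genes were lowest, had 435 FPKM of macrophage, 35.7 FPKM of lymphocyte and 80.99 FPKM of dividing cell markers, the lowest of all 10 libraries for the macrophage and lymphocyte markers. Vehicle library 4, where the ribosomal protein genes were highest, had 569 FPKM of macrophage, 42.3 FPKM of lymphocyte and 92.7 FPKM of dividing cell markers, within the range of the other vehicle libraries or at its low end. With the run as a block Cd3e had -0.33. Of the fibroblast markers, 6 of 8 were lower (median -0.28, and -0.36 without the 2 libraries). Markers of kidney segments had more genes higher with oxonic acid: 6 of 7 for the thick ascending limb and distal tubule (median 0.35, and 0.35 without the 2 libraries), 8 of 10 for the collecting duct (0.26, and 0.23), 6 of 8 for the inner medulla and thin limb (0.26, and 0.60), 7 of 8 for the glomerulus (0.23, and 0.082), 6 of 7 for endothelium (0.11, and 0.081) and 8 of 10 for the proximal tubule (0.086, and 0.044). The inner medulla and thin limb list had 9 genes tested without the 2 libraries, so its medians cover unlike sets. Few red cell and neutrophil markers were tested (3 of 4 and 1 of 2 higher). The part of these cells in the ribosomal protein values was not tested.

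The genes most like the members from library to library were sought among 9073 other tested genes with a mean of at least 5 FPKM, by the correlation with the mean member level over the 10 libraries after subtraction of the group means. The median correlation of all candidates was 0.091. The 5 highest were LOC100362640 (0.98), described as S4 X-linked X-like, a row described as ribosomal protein L6 (0.97), Cct5 (0.97), a subunit of the chaperonin that folds actin and tubulin, Eef1a1 (0.97) and Rpsa (0.97). Thus 3 of the 5 rows name ribosomal proteins. Those for S4 and L6 name the protein of a member (Rps4x and Rpl6), and Rpsa is outside the naming pattern.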

How the data were processed

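RNA of 10 rat kidney cortex samples was selected with poly-T beads and sequenced on Illumina instruments, per the labels' protocols, which cover libraries made with and without strand information. The tools are listed, per the submitters' processing notes, as featureCounts 1.5.0-p3, HISAT2 2.0.5, fastp and StringTie 1.3.3b. Neither the genome build nor the treatment of multi-mapped reads is stated (not given in the sources used here). The deposited table holds FPKM per gene and library, computed by the authors. FPKM times gene length gave whole reads, after division by one constant per library, for 100% of values above 0 (within 0.01 of a read), and so 14.5 to 18.5 M (mega) reads in genes per library. No pair of libraries agreed within sampling noise (lowest chi-square per degree of freedom 4.79).

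Genes with a mean of at least 0.5 FPKM over the 10 libraries (14508) were tested on log2(FPKM + 0.5) with limma 3.58.1 (lmFit, eBayes with trend) in R 4.3.3. The contrast was oxonic acid minus vehicle, tested two-sided with Benjamini-Hochberg adjustment over all genes, threshold 0.05. Limma voom on the recovered reads was an added alternative. The procedure was tested on simulated data. Copy rows were found by the protein named in the description. Gene starts came from RefSeq (GRCr8). Members named are the 5 at each end of the log2 difference with a mean of at least 1 FPKM (4 were higher), of unadjusted p and of level, and a fixed set; of other lists, up to 3 with the smallest p and a fixed set, some left out. The members and lists were chosen with earlier results of these data known. The labels do not say whether replicate numbers pair the samples. Correlations of same-numbered deviations were -0.013 to 0.20, beside -0.20 to 0.16 for other pairs, which cannot exclude a pairing. Alternatives covered pseudocount, filter, scaling, blocks, library weights, row choice and single libraries left out. Python 3.11.15 and matplotlib 3.10.9 drew the figures. A few genes enter every count and fit but are not reported here by name.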

Additional observations from a re-analysis of the deposited data

Results flagged for a closer look

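In 56 groups of 5 values (the named members and the member share, by group), the highest or lowest library was set against the others by its gap divided by the group's range and Dixon's 95% critical value as the limit. Chance passes about 1 in 20 such groups, and 5 passed. Rps27a had 335 FPKM in oxonic acid library 2, above the 180.2 to 196 FPKM of the other oxonic acid libraries. Rpl7a had 78.8 FPKM in oxonic acid library 1, above 19.8 to 25.8 FPKM in the others of its group. Rps2 had 603 FPKM in oxonic acid library 5, above 425 to 474 FPKM. Rplp1 had 1245 FPKM in vehicle library 4, above 974 to 1006 FPKM in the other vehicle libraries. The member share of summed FPKM was 3.46% in oxonic acid library 2, below 3.86 to 3.98% in the others of its group.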

How the results depend on the processing

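0 members were called under every alternative run. The median log2 difference of the members kept its sign under all of them, from -0.16 to -0.063 when single libraries were left out and from -0.14 (equal summed FPKM, with 20 members at an unadjusted p under 0.05 against 4) to -0.015 (without oxonic acid library 2 and vehicle library 4). With the replicate number as a block the median was -0.12, with 4 members higher and 0 called. The labels do not say whether these numbers pair the samples. The count of higher members, 4, was 2 to 8 with single libraries left out, 8 of 70 with no filter, 2 with equal summed FPKM, 7 with rows naming the same protein summed and 21 without the 2 libraries. The share difference (oxonic acid minus vehicle) was -0.47 percentage points, and -0.58 to -0.30 with single libraries left out.

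Some signs reversed. Without the 2 libraries the log2 difference was 0.011 for Eef1a1, 0.00026 for Ncl, 0.69 for Rpl10l, 0.056 for Rpl11, 0.015 for Rpl35, 0.0042 for Rpl36al, 0.031 for Rpl39, 0.021 for Rpl41, 0.022 for Rps6 and 0.0037 for Ubtf. With the sample-number run as a block it was 0.032 for Eef2, 1.17 for Rpl10l, 0.0056 for Rpl11 and -0.057 for Rps29. With quantile normalization it was 0.011 for Eef2 and 0.0067 for Rpl11. With equal summed FPKM it was -0.011 for Rpl29 and -0.021 for Rps29. Scaling outside the mitochondrial genome gave 0.0067 for Rpl11 and 0.0095 for Ubtf, and leaving members out as well gave 0.00035 for Rpl11 and 0.0032 for Ubtf. Library weights gave 0.0011 for Rpl11 and -0.032 for Rpl29, voom gave 0.058 for Rpl10l, and summed rows gave 0.33 for Rps6. With single libraries left out, Rpl10l ran from -0.66 to 0.38, Rpl11 from -0.054 to 0.030, Rpl29 from -0.057 to 0.098, Rps29 from -0.054 to 0.053 and Ubtf from -0.025 to 0.0050. The causes were not tested.

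FPKM are relative amounts, and with 5 libraries a group the median standard error of a member, 0.090 on the log2 scale, is close to the median difference. Reads shared between copies of a ribosomal protein cannot be assigned from these values.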
